A study of Homo sapiens with 6 samples.

Results

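The CLK kinases (CLK1, CLK2, CLK3 and CLK4) and the SRPK kinases (SRPK1 and SRPK2) were examined through the splice junctions of their own transcripts in K562, a human cell line from chronic myeloid leukaemia. Members were all junctions listed in any of 6 junction tables with both ends inside the hg19 window of a kinase gene and on its strand. In all, 321 of 780566 listed junctions were members, and 130 of these were annotated. CLK1 had 32 member junctions, CLK2 had 46, CLK3 had 35, CLK4 had 29, SRPK1 had 100 and SRPK2 had 79. The groups were 3 libraries with the U2AF1 wild type knock-in genotype, called wild type below, and 3 libraries of cells with U2AF1 S34F. U2AF1 is the subunit of the splicing factor U2AF that touches the AG dinucleotide closing an intron. S34F is a serine-to-phenylalanine change in one of its zinc fingers. The comparison asks how splicing and the amount of spliced RNA differ between these genotypes. The labels do not say whether the libraries of a group came from separate cultures or clones, so p-values measure the spread between these libraries, which may be technical. The substitution itself cannot be checked from junction counts.

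SR proteins are splicing factors with a domain rich in arginine and serine, and their activity depends on the phosphorylation of that domain. SRPK kinases phosphorylate SR proteins mainly in the cytoplasm, which allows their import into the nucleus. CLK kinases phosphorylate them further in the nucleus, where this releases them from speckles and changes their use at splice sites. CLK genes also make transcripts that skip an exon near the start of the coding region, classically called exon 4. Skipping it in CLK1 shifts the reading frame and removes the kinase domain, and CLK kinase activity is known to feed back on this choice. CLK1 and CLK4 transcripts are also known for retained introns next to that exon, which leave no junction read and were not analysed here.

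The 4 CLK genes share an exon architecture that the junctions show directly. Joining the most-read annotated junctions of each gene gave consecutive exons of 67, 117, 167, 95, 130, 83, 80 and 91 nt in CLK1, CLK2, CLK3 and CLK4 alike. The skipped exon before the 67-nt exon was 91 nt in CLK1, 88 nt or 85 nt in CLK2, 97 nt in CLK3 and 91 nt in CLK4. SRPK1 and SRPK2 had their own shared series of 109, 88, 88, 107, 166 and 26 nt and, after 2 longer exons that differed, 101, 108, 70 and 93 nt. Exons are named below by gene and length, and exon numbers count from the most-read chain of junctions of these libraries, not from an annotation.

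The libraries held 18074706 to 39279169 uniquely mapped spliced reads. The K562 label was checked on 5 erythroid or leukaemia-line markers (HBG1, HBG2, HBE1, TFRC and GATA1), which together took 2324 to 5186 RPM (junction reads per 1000000 unique spliced reads of the library). A set of 4 genes of other cells (CD3E, ALB, KRT5 and COL1A1) took 10.4 to 40.2 RPM. Most of this was COL1A1, a fibroblast marker, with 8.14 to 39.5 RPM. CD3E, ALB and KRT5 reached at most 2.28, 0.170 and 0.310 RPM. The windows of these marker genes were set by hand from known hg19 positions, not from an annotation. Within the first set, HBE1 had 1275 RPM in S34F replicate 1 and 43.4 to 178.6 RPM in the other libraries. Wild-type replicate 1 stood apart from the other wild-type libraries. Across 78972 junctions with at least 20 reads in every library, which are not independent replicates, its log2 RPM correlated best with those of S34F replicate 2 (Pearson r = 0.962), while r was 0.951 and 0.955 with wild-type replicates 2 and 3. Those had r = 0.969 with each other, and the S34F libraries had r from 0.9427 to 0.9496 among themselves. Among exons called in a fit without it, it lay nearer to the S34F mean than to the mean of wild-type replicates 2 and 3 in 383 of 1037 cassette exons. In the fits without them, wild-type replicates 2 and 3 lay nearer to S34F in 5 of 130 and 28 of 320. S34F replicates 1 and 2 did so in 89 of 116 and 62 of 73, so some of theirs lay nearer to wild type. For pairs of competing acceptors the count was 38 of 168 for wild-type replicate 1. It was 4 of 125 and 11 of 126 for wild-type replicates 2 and 3. The labels name no batch, and what sets wild-type replicate 1 apart was not tested. Results below whose call changes without it are given both ways.

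Reads at annotated junctions gave each gene's amount of spliced RNA, in RPM. In bulk RNA, fewer expressing cells and less RNA per cell cannot be told apart. CLK1, a kinase with a broad range of SR protein substrates, had 38.2, 62.6 and 69.0 RPM in the wild-type libraries and 37.7, 41.5 and 36.8 in the S34F libraries. CLK3 had 29.4, 45.1 and 64.8 RPM in wild type against 31.7, 23.8 and 28.9 in S34F. In both genes wild-type replicates 2 and 3 lay above every S34F library, and wild-type replicate 1 lay within the S34F range. The two-sided exact permutation test gave p = 0.2 for each, where 3 against 3 libraries allow no p below 0.1. When the 6 totals were fitted with edgeR beside all junctions, an analysis added after the data were seen, log2 changes were -0.56 for CLK1 (SE 0.22, adjusted p = 0.281) and -0.74 for CLK3 (SE 0.25, adjusted p = 0.222). Without wild-type replicate 1 these were -0.77 (adjusted p = 0.102) and -0.99 (adjusted p = 0.0699). Neither total passed the threshold in either fit.

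The other 4 kinases had group means closer together as a ratio. CLK2 had 63.98, 74.2 and 68.5 RPM in wild type against 67.7, 52.3 and 83.4 in S34F (exact permutation p = 0.9). CLK4 had 26.2, 25.6 and 24.97 RPM against 28.3, 24.0 and 28.0 (exact permutation p = 0.4). For these genes the groups overlapped. SRPK1 had 157.8, 240.5 and 220.8 RPM in wild type against 176.5, 178.5 and 199.0 in S34F (exact permutation p = 0.4), again with the lowest value in wild-type replicate 1. SRPK2 had 44.6, 47.7 and 51.3 RPM against 47.9, 39.8 and 42.7 (exact permutation p = 0.3). These were 6 comparisons, and none passed before or after allowing for that number.

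**Figure D1:**
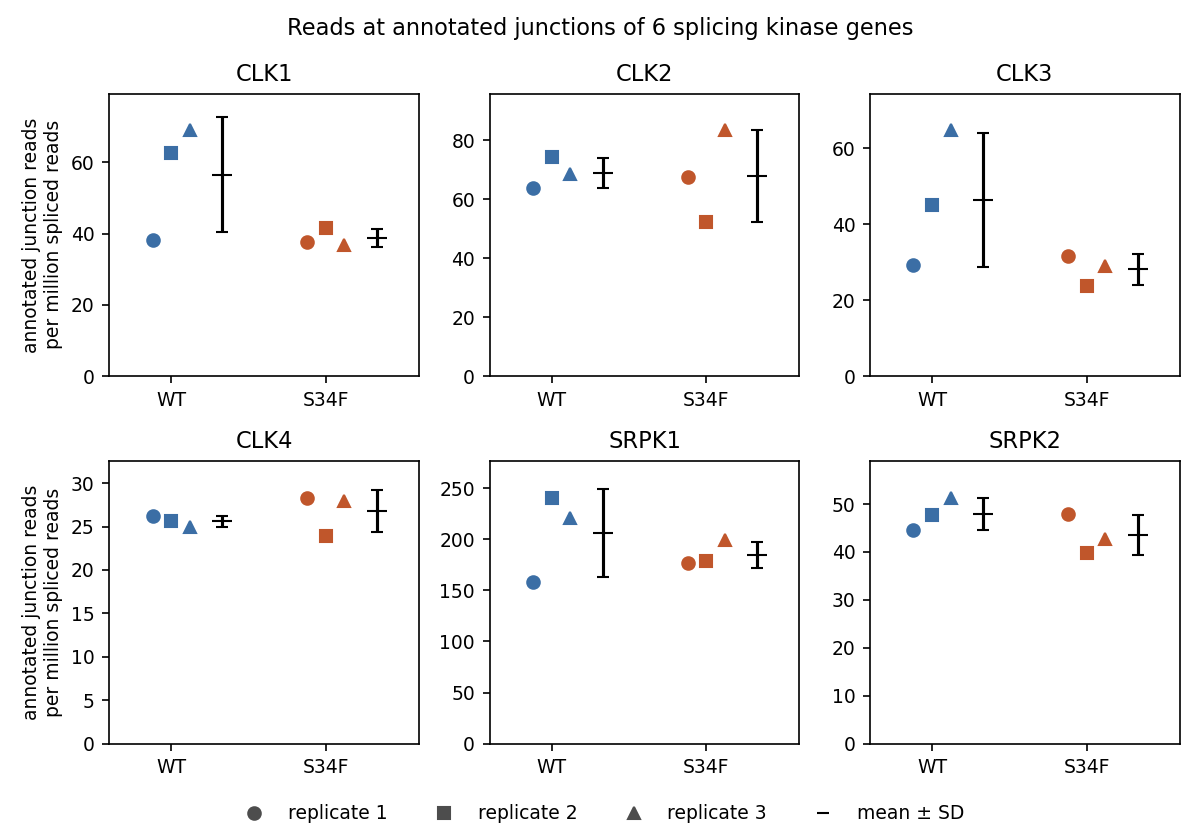
Annotated junction reads in RPM for each kinase gene, with 1 point per library, symbols for replicate numbers and bars for mean ± SD (n = 3 per group). In CLK1 and CLK3 the points of wild-type replicates 2 and 3 stand above all S34F points while that of wild-type replicate 1 does not.

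Genes were compared with each other only per junction of the main chain, since longer chains collect more reads. SRPK1 was highest in wild type with 13.7 ± 2.88 RPM per junction (SD, n = 3). CLK2 (5.49 ± 0.384), CLK1 (4.54 ± 1.35), CLK3 (3.81 ± 1.48) and SRPK2 (2.70 ± 0.205) followed, and CLK4 was lowest with 1.63 ± 0.196. The wild-type range of CLK1 (3.00 to 5.57) overlapped those of CLK2 (5.11 to 5.88) and CLK3 (2.39 to 5.34), and CLK2 lay above CLK3 in each of the 3 libraries. In S34F the order at the top was kept, with SRPK1 at 12.2 ± 0.806 and CLK2 at 5.39 ± 1.20. CLK1 stood at 3.02 ± 0.199, SRPK2 at 2.43 ± 0.225, CLK3 at 2.20 ± 0.321 and CLK4 at 1.86 ± 0.189, so that CLK3 lay below SRPK2 in mean, by about the spread of either.

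Cassette exons were measured by their inclusion level, in which the average of the 2 inclusion junctions is set against its sum with the skipping junction. Of 139 candidate cassette events in the kinase genes, 26 had enough reads to be tested (at least 20 in every library and 10 on each junction in all). Among these, 4 were called at an edgeR adjusted p under 0.05 with group means at least 10 percentage points apart, and all 4 had lower inclusion in S34F. Over all genes, 2.74% of 19272 tested events were called, and 1.71% were called with lower inclusion in S34F. The 4 calls lay among the 19 CLK events, 3 in CLK3 and 1 in CLK1, and none of the 7 SRPK events was called. In 15 of 19 CLK events the mean inclusion was lower in S34F, beside 10199 of 19272 events over all genes. The median difference was -4.09 percentage points, beside a median of -0.085 over all tested events. Some of the CLK events share reads and are not independent. Groups did not overlap in 26.9% of the 26 kinase events and in 29.4% of all tested events. Without wild-type replicate 1 these shares were 73.1% and 45.1%, and 7 kinase events were called beside 6.16% of all tested.

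CLK3 skipped the fourth exon of its chain more often in S34F. The 97-nt exon (chr15:74914461-74914557, plus strand) had inclusion levels of 84.1%, 86.2% and 95.9% in wild type against 64.04%, 54.4% and 52.6% in S34F. All S34F libraries lay below all wild-type libraries, wild-type replicate 1 included. The group means were 88.7% ± 6.33 and 57.0% ± 6.15 (SD, n = 3 each). The change was -2.66 in log2 odds (SE 0.50, edgeR adjusted p = 0.0088). Without wild-type replicate 1 it was -2.96 (adjusted p = 0.000934), and on a scale from 0 at the mean of the other wild-type libraries to 1 at the S34F mean that library stood at 0.205. DESeq2 gave an adjusted p of 0.0081. The call was lost without S34F replicate 2 (edgeR adjusted p = 0.0567), without S34F replicate 3 (adjusted p = 0.109) and with limma on log2 odds (adjusted p = 0.0794). Over all genes these 3 fits called 74, 0 and 0 cassette events, beside 529 in the edgeR fit of all libraries. No event could therefore keep its call in the last 2. Counts were small, with 29 reads behind the level of S34F replicate 2, whose 95% Clopper-Pearson interval was 35.7% to 73.6%. Such intervals cover counting error only, since the reads carry no molecular identifiers.

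The 5′ splice site of the exon before it (the intron starts at chr15 position 74912567) joined 3 acceptors. The acceptor of the 97-nt exon took 83.6%, 86.9% and 95.8% of the reads from that site in wild type against 56.9%, 45.7% and 48.5% in S34F (log2 odds -3.02, SE 0.50, edgeR adjusted p = 0.00145). The next acceptor, which starts the 67-nt exon, took 13.4%, 13.1% and 4.17% in wild type against 31.4%, 37.1% and 37.1% in S34F (edgeR adjusted p = 0.0107). The farthest acceptor, which starts the 117-nt exon and so leaves out both exons, took 2.99%, 0% and 0% in wild type against 11.8%, 17.1% and 14.4% in S34F (edgeR adjusted p = 0.00636). The zeros stand for 0 of 99 and 0 of 96 reads, which allow shares of up to 3.03% and 3.12%. At each of the 3 acceptors the S34F and wild-type libraries formed groups that did not overlap, as in 25.2% of 51522 junctions tested over all genes. The 3 shares come from the same site and add up to the whole, so they are not independent. The first call was lost without S34F replicate 3 (adjusted p = 0.0528) and so was the last (adjusted p = 0.0772). The middle one was lost without wild-type replicate 3 (adjusted p = 0.0513), S34F replicate 2 (adjusted p = 0.0567) or S34F replicate 3 (adjusted p = 0.107). Over all genes the fits without these libraries called 635, 336 and 77 junctions, beside 1092 with all libraries. With DESeq2 the first acceptor was called (adjusted p = 0.0159), and the other 2 were not (adjusted p = 0.0983 and 0.0874).

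The junction that leaves out both exons gave the other CLK3 cassette calls, which therefore are not independent of the first. The pair of exons taken as a unit, from the start of the 97-nt exon to the end of the 67-nt exon (chr15:74914461-74914901), had inclusion levels of 96.0%, 100% and 100% in wild type against 85.4%, 80% and 81.3% in S34F (log2 odds -4.32, SE 0.83, edgeR adjusted p = 0.00991). It was lost without S34F replicate 2 (adjusted p = 0.0553) or S34F replicate 3 (adjusted p = 0.092), in fits that called 74 and 0 cassette events over all genes. The 67-nt exon (chr15:74914835-74914901), measured against the same skipping reads, had 92.5%, 100% and 100% against 82.6%, 78.9% and 79.9% (edgeR adjusted p = 0.0258). On its upstream side this level counts only reads that skip the 97-nt exon. Reads from the 97-nt exon into the 67-nt exon (39, 76 and 97 in wild type against 28, 15 and 33 in S34F) are left out. The level therefore covers inclusion of the 67-nt exon only in part. The call of the 67-nt exon held only in the fit that left out wild-type replicate 1 (adjusted p = 0.00208) among the 6 fits that left out a library, where the other 5 gave adjusted p from 0.06 to 0.136. Those 5 fits called 0 to 325 cassette events over all genes, beside 529 with all libraries. Further along, the 167-nt exon of CLK3 (chr15:74918143-74918309), with an unannotated skipping junction, had 95.5%, 100% and 97.8% against 93.2%, 91.01% and 96.0% and was not called (edgeR adjusted p = 0.247).

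CLK1 and CLK4 had the same kind of exon at the same place, and there wild-type replicate 1 sat with the S34F libraries. The 91-nt exon of CLK1 (chr2:201724848-201724938, minus strand) had inclusion levels of 19.0%, 60.5% and 61.2% in wild type against 24.4%, 23.6% and 18.6% in S34F. The 91-nt exon of CLK4 (chr5:178044345-178044435, minus strand) had 13.6%, 77.0% and 70.6% in wild type against 20.6%, 18.1% and 12.3% in S34F. In both, wild-type replicates 2 and 3 were high, and the other 4 libraries were low and overlapped. The position of wild-type replicate 1 on the scale from 0 to 1 was 1.08 for CLK1 and 1.06 for CLK4. With all libraries neither exon was called, at edgeR adjusted p = 0.0594 for CLK1 (log2 odds -1.79, SE 0.55) and 0.0525 for CLK4 (log2 odds -2.51, SE 0.74). Without wild-type replicate 1 both were called, at adjusted p = 0.000302 for CLK1 (log2 odds -2.46, SE 0.37) and 2.25e-05 for CLK4 (log2 odds -3.85, SE 0.45). The intervals of wild-type replicate 1 (10.6% to 31.8% in CLK1 and 6.75% to 25.4% in CLK4, 95% Clopper-Pearson) lay wholly below those of the other wild-type libraries.

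CLK2 carried the matching exon with no such difference. Its 88-nt exon (chr1:155238499-155238586, minus strand) had inclusion levels of 88.7%, 71.9% and 87.6% in wild type against 82.5%, 78.8% and 85.7% in S34F, with means of 82.7% ± 9.44 and 82.3% ± 3.47 (log2 odds 0.07, SE 0.50, edgeR adjusted p = 0.951). Wild-type replicate 2 was the lowest library here, and wild-type replicate 1 the highest. A form of the exon that begins 3 nt later is 85 nt long and had means of 80.1% and 78.2% (edgeR adjusted p = 0.983). In the fits without wild-type replicate 1 the log2 odds for the 88-nt exon were 0.43 (SE 0.50, adjusted p = 0.603). The difference between the CLK genes at this exon was not tested.

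**Figure D2:**
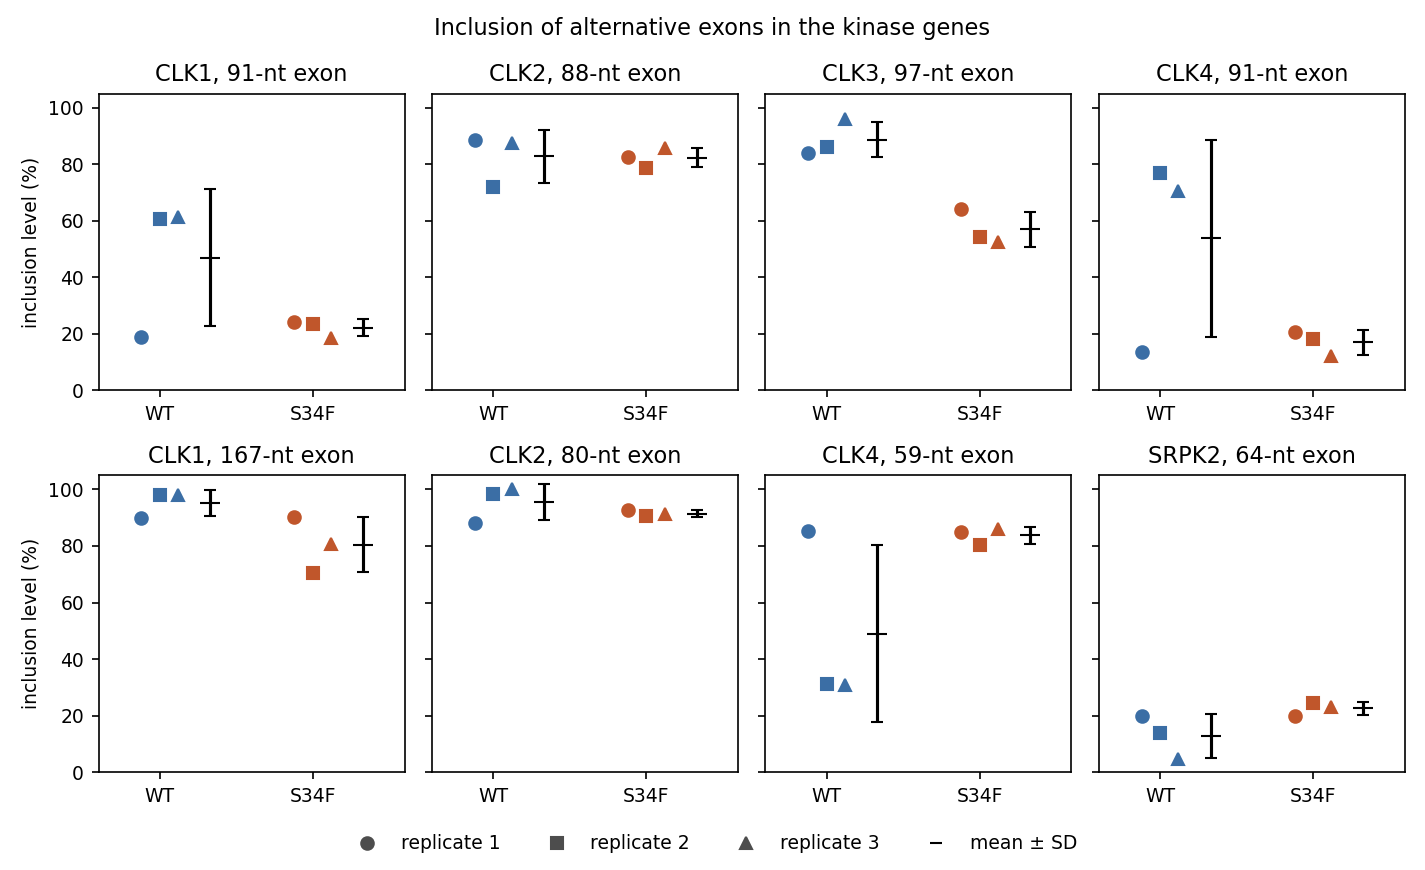
Inclusion level (%) of 8 alternative exons by library, with symbols for replicate numbers and bars for mean ± SD (n = 3 per group). The top row holds the exons before the 67-nt exon in each CLK gene. The CLK3 groups are apart, the CLK1 and CLK4 panels show wild-type replicate 1 beside the S34F libraries, and the CLK2 groups overlap.

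**Figure D3:**
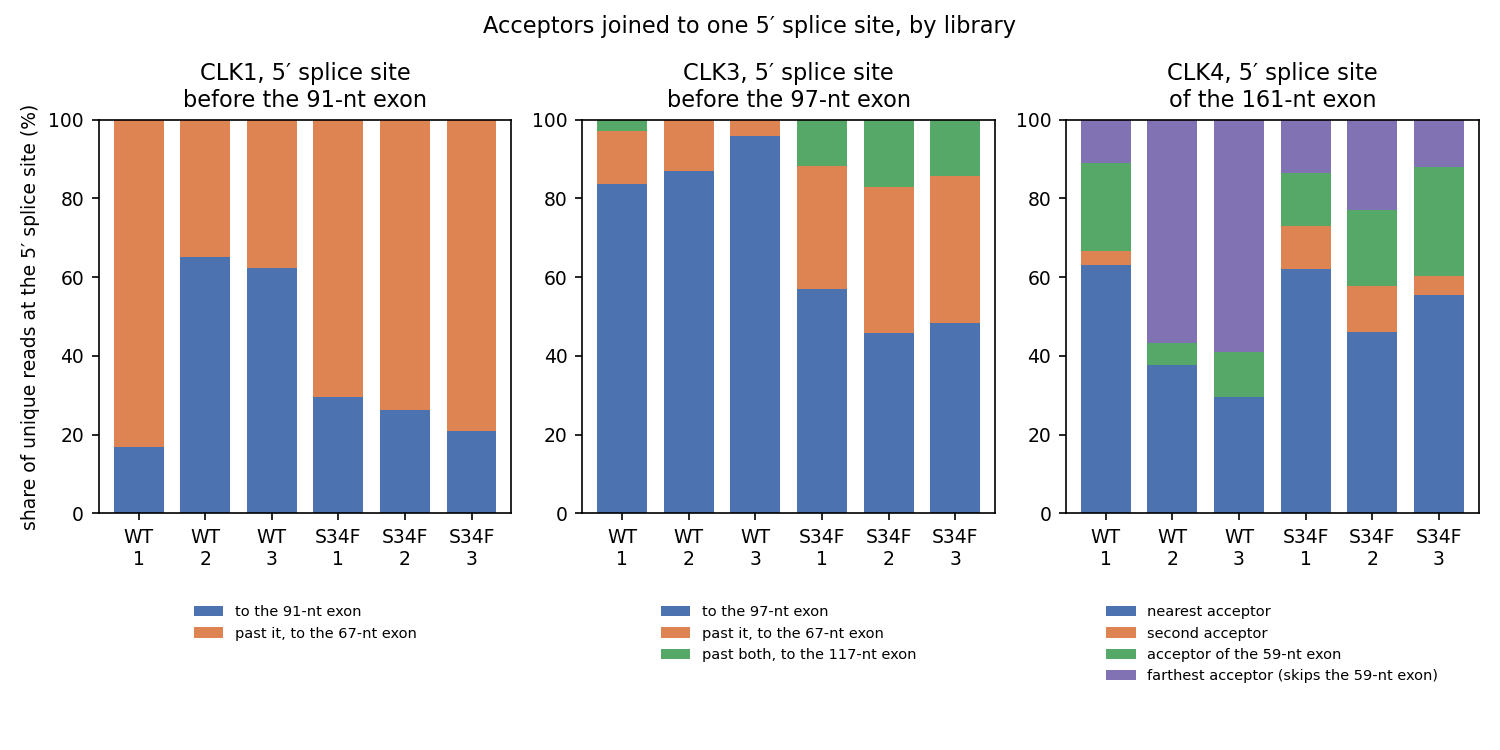
Share of unique reads (%) joined to each acceptor from 1 shared 5′ splice site in CLK1, CLK3 and CLK4, as stacked bars per library. In CLK3 the reads past the 97-nt exon are more frequent in all S34F libraries, whereas in CLK1 and CLK4 the bar of wild-type replicate 1 looks like those of S34F.

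CLK4 had a second exon that differed in the opposite direction. Its 59-nt exon (chr5:178046839-178046897), which lies between the 161-nt second exon and the 223-nt exon, had inclusion levels of 85.2%, 31.0% and 30.7% in wild type against 84.8%, 80.3% and 85.9% in S34F. Wild-type replicate 1 again lay with S34F, at 1.03 on the scale from 0 to 1. The exon was not called with all libraries (log2 odds 2.42, SE 0.71, edgeR adjusted p = 0.0521) and was called without that library (log2 odds 3.51, SE 0.48, adjusted p = 0.000132). The 5′ splice site of this exon also serves a longer form of 836 nt, so that reads on its downstream side (57 in wild-type replicate 1) outnumber those on its upstream side (12 in the same library), and the level covers both forms in part. From the 161-nt exon, the junction that leaves out everything up to the 223-nt exon took 11.1%, 56.6% and 59.1% of reads in wild type against 13.5%, 23.1% and 12.05% in S34F. The nearest acceptor on the same site, at an exon of 67 nt, took 63.0%, 37.7% and 29.5% against 62.2%, 46.2% and 55.4%. Neither acceptor was called with all libraries (edgeR adjusted p = 0.0928 and 0.53), and without wild-type replicate 1 the first was called (log2 odds -2.96, adjusted p = 0.000616) and the second was not (adjusted p = 0.106). The acceptor of the 59-nt exon itself took 22.2%, 5.66% and 11.4% of the reads from this site against 13.5%, 19.2% and 27.7%. There the groups overlapped, and it was not called with all libraries (edgeR adjusted p = 0.466) or without wild-type replicate 1 (adjusted p = 0.127). The acceptor of the 836-nt form took 3.70%, 0% and 0% against 10.8%, 11.5% and 4.82%, from at most 4 reads per library. Here the groups did not overlap, as in 25.2% of junctions over all genes, and wild-type replicate 1 lay outside the S34F range. It was not called with all libraries (edgeR adjusted p = 0.164). The zeros stand for 0 of 53 and 0 of 44 reads, which allow shares of up to 5.66% and 6.82%. Near the end of the gene a 41-nt exon (chr5:178032826-178032866) had 15.5%, 8.47% and 7.69% against 15.4%, 18.0% and 14.9% and was not called (edgeR adjusted p = 0.475).

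In CLK1 all 6 tested cassette events, some of which share reads, had lower mean inclusion in S34F and an unadjusted edgeR p under 0.05, beside 23.9% of all tested events with such a p in either direction. One was called, the 167-nt seventh exon (chr2:201722441-201722607). It had inclusion levels of 89.9%, 97.9% and 98.0% in wild type against 90.1%, 70.5% and 80.7% in S34F (log2 odds -2.42, SE 0.63, edgeR adjusted p = 0.0337). Its skipping junction (chr2:201721709-201722695) is unannotated and held 8, 3 and 2 unique reads in wild type against 7, 18 and 19 in S34F. Wild-type replicate 1 and S34F replicate 1 had nearly the same level, so that the groups overlapped. The call held without wild-type replicate 1 (adjusted p = 0.00204) and was lost without each of the other 5 libraries in turn (adjusted p from 0.0542 to 0.166), and DESeq2 gave an adjusted p of 0.0675. The fits without each of those 5 called 0 to 325 cassette events over all genes, beside 529 with all libraries. Reads skipping this 167-nt exon also made the 2 acceptor usage calls of CLK1, which mirror each other at 1 site (edgeR adjusted p = 0.0284).

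The remaining CLK1 events were shifts near the upper end of the scale. The 161-nt second exon (chr2:201726425-201726585) had 93.7%, 100% and 100% in wild type against 93.9%, 92.1% and 91.8% in S34F. It was not called (edgeR adjusted p = 0.144), and without wild-type replicate 1 it passed the p threshold (adjusted p = 0.00399) but not the minimum difference. The 117-nt exon (chr2:201722696-201722812) had 97.8%, 98.6% and 100% against 95.3%, 90.5% and 95.9% (edgeR adjusted p = 0.157). The 117-nt and 167-nt exons as a unit (chr2:201722441-201722812) had means of 99.3% and 95.5% (edgeR adjusted p = 0.11). The 80-nt eleventh exon (chr2:201719339-201719418) had 98.3%, 99.4% and 100% against 96.6%, 99.0% and 94.8% (edgeR adjusted p = 0.13).

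Of the other CLK2 exons, those of 80, 95 and 167 nt were included in most reads of both groups. Its 80-nt exon (chr1:155234012-155234091), the counterpart by length and order of the CLK1 eleventh exon, had 88.1%, 98.5% and 100% in wild type against 92.7%, 90.4% and 91.2% in S34F. Wild-type replicate 1 was the lowest of all libraries, and the exon was not called (edgeR adjusted p = 0.352; 0.00417 without that library, with means 7.82 percentage points apart). The 95-nt exon (chr1:155235651-155235745) had 94.2%, 96.9% and 96.7% against 90.98%, 89.2% and 95.8% (edgeR adjusted p = 0.326). The 167-nt exon (chr1:155236520-155236686), counterpart of the exon called in CLK1, had 90.3%, 95.6% and 92.6% against 95.2%, 96.0% and 96.8% (edgeR adjusted p = 0.36). A 136-nt exon near the 3′ end (chr1:155233364-155233499) was included in 2.41% and 2.44% of reads on average. None of the 6 CLK2 events reached an unadjusted p under 0.05.

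For exons wholly inside the coding region, length modulo 3 decides whether skipping keeps the reading frame. Which of the tested exons lie inside it was not determined, so lengths only are given. Of the 17 single CLK exons tested, 16 had a length that is not a multiple of 3, the exception being the 117-nt exon of CLK1. Of the 7 SRPK exons, 2 had such a length. All 3 single exons called in the kinase genes (97, 67 and 167 nt) were among the 16. With 16 of 17 CLK exons of such a length, this does not relate the calls to exon length. The share over all genes was not counted. The 97-nt and 67-nt exons of CLK3 sum to a length that is not a multiple of 3 either.

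SRPK1, the kinase with the deepest junctions here, had 4 cassette exons tested with group means at most 1.26 percentage points apart. Its 93-nt exon (chr6:35806114-35806206) had 98.6%, 98.7% and 98.1% in wild type against 100%, 99.4% and 98.9% in S34F (edgeR adjusted p = 0.4). The 214-nt exon (chr6:35838058-35838271) had 96.8%, 99.8% and 99.3% against 98.4%, 98.6% and 97.2% (edgeR adjusted p = 0.519). A 96-nt exon (chr6:35872656-35872751) and a 117-nt exon (chr6:35824170-35824286) were included in 3.14% to 3.79% and 0.627% to 2.15% of wild-type reads, with S34F ranges of 1.08% to 3.03% and 0.746% to 1.88%. All of these overlapped between groups except the 93-nt exon and the 96-nt exon, whose group ranges stood apart by less than 1 percentage point.

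SRPK2 had 3 cassette exons tested. A 64-nt exon (chr7:104909253-104909316) had 20%, 13.8% and 4.67% in wild type against 20%, 24.5% and 23.1% in S34F (log2 odds 1.00, SE 0.53, edgeR adjusted p = 0.259; 1.34 and 0.104 without wild-type replicate 1). Wild-type replicate 1 and S34F replicate 1 had the same level. A 93-nt exon (chr7:104766229-104766321) had 13.2%, 19.5% and 21.4% against 21.8%, 24.7% and 12.8% (edgeR adjusted p = 0.903). Another exon of 93 nt (chr7:104766695-104766787) had 95.8%, 100% and 97.9% against 89.6%, 100% and 91.04% (edgeR adjusted p = 0.235). None of the 7 SRPK exons reached an unadjusted edgeR p under 0.05.

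Pairs of competing acceptors at most 100 nt apart set 2 nearby sites of the kind that U2AF1 contacts against each other. Cassette exons and acceptor usage involve such sites too, so this class is not ranked above them. Of 41 such pairs in the kinase genes 6 had enough reads, 4 in CLK2 and 2 in SRPK1, and 0 were called by edgeR, DESeq2 or limma, beside 2.85%, 0.757% and 0.176% of 5684 pairs over all genes. One had an unadjusted edgeR p under 0.05, beside 17.3% of all pairs. It was an SRPK1 acceptor 28 nt upstream of the main one (introns end at chr6:35836916 and chr6:35836888, minus strand), which took 0 of 382, 0 of 565 and 0 of 412 reads in wild type against 1.02%, 0.687% and 0.511% in S34F. It reached an edgeR adjusted p of 0.0226 but the groups differed by 0.74 percentage points, under the minimum of 10. The zeros allow shares of up to 0.785%, 0.531% and 0.728%, so single wild-type libraries do not exclude the lower S34F values. DESeq2 gave an adjusted p of 0.137.

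CLK2 has 2 tandem acceptors 3 nt apart, at the third and the fourth exon of its chain. At the third exon the upstream acceptor (chr1:155239508) took 71.2%, 68.1% and 75% of the reads of the pair in wild type against 66.9%, 74.7% and 68.2% in S34F (edgeR adjusted p = 0.924). At the fourth exon the upstream acceptor (chr1:155238587) took 71.0%, 56.2% and 70.0% against 70.0%, 69.7% and 67.3% (edgeR adjusted p = 0.904). The groups overlapped at the third exon, and at the fourth wild-type replicate 2 was the low value. Competing donors could not be compared in the kinase genes, as 0 of 18 pairs had enough reads.

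Over the whole class of acceptor usage, in which each junction is set against all other junctions from its 5′ splice site, 64 of 220 kinase junctions had enough reads. Of these, 5 were called, 3 in CLK3 and 2 in CLK1, beside 2.12% of 51522 junctions over all genes. The 3 CLK3 calls share a 5′ splice site and the 2 CLK1 calls mirror each other at another, so the 5 are not independent. DESeq2 called 1 of the 5, beside 0.241% of all. The median absolute difference between group means was 4.11 percentage points for the 41 CLK junctions, 0.922 for the 23 SRPK junctions and 1.48 over all tested junctions. In the fit without wild-type replicate 1, 10 kinase junctions were called (CLK1 4, CLK3 3 and CLK4 3), beside 4.15% of all tested. In CLK2 and SRPK1 the largest differences were 4.15 and 2.03 percentage points.

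**Figure D4:**
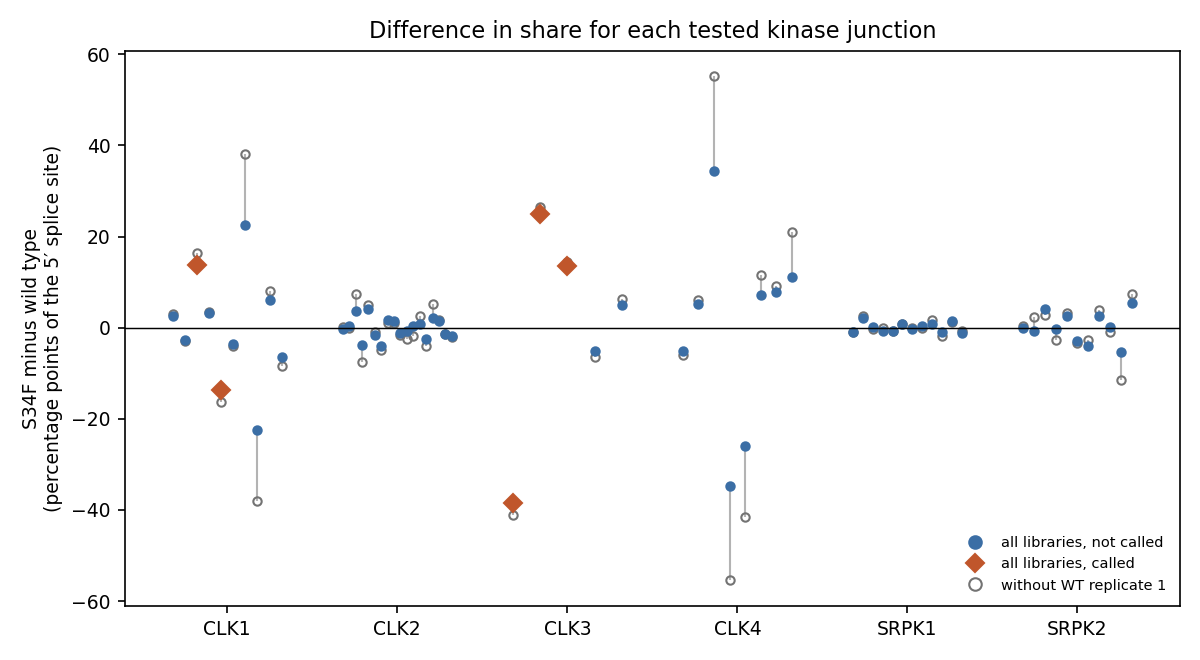
Difference in mean share between S34F and wild type (percentage points) for each of the 64 tested kinase junctions, by gene and ordered by position. Filled points use all libraries, diamonds are called, and open points leave out wild-type replicate 1, which moves the CLK1 and CLK4 points away from 0 and the CLK3 points little.

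The abundance of single junctions relative to all spliced reads was tested for 90 kinase junctions, and 1 was called by edgeR, beside 0.295% of 116446 junctions over all genes. It was the CLK3 junction into the 97-nt exon (chr15:74912567-74914460), with 2.20, 3.45 and 4.75 RPM in wild type against 1.24, 0.885 and 1.20 in S34F (log2 change -1.65, SE 0.30, edgeR adjusted p = 0.0474). The junction out of the same exon had 1.53, 3.05 and 5.01 RPM against 1.19, 0.830 and 0.840 (edgeR adjusted p = 0.0976). It was called without wild-type replicate 1 (edgeR adjusted p = 0.0269) and with DESeq2 on all libraries (adjusted p = 0.00743). In CLK1 the junction out of the 91-nt exon (chr2:201724470-201724847) had 0.511, 2.41 and 2.94 RPM in wild type against 0.426, 0.609 and 0.407 in S34F (edgeR adjusted p = 0.176, 0.0211 without wild-type replicate 1). The junction into that CLK1 exon (chr2:201724939-201725960) had 0.393, 3.73 and 3.25 RPM against 0.810, 0.830 and 0.560 (edgeR adjusted p = 0.348, 0.0181 without wild-type replicate 1). The junction that skips this CLK1 exon had 1.93, 2.01 and 1.96 RPM against 1.92, 2.32 and 2.11 and so differed by less than the spread among S34F libraries. In CLK4 the junction into the 91-nt exon (chr5:178044436-178045556) had 0.315, 2.09 and 1.91 RPM against 0.639, 0.553 and 0.433 (edgeR adjusted p = 0.316, 0.0483 without wild-type replicate 1). In CLK1 and CLK3 alike, 12 of 13 junctions had lower abundance in S34F, beside 56849 of 116446 junctions over all genes. Median log2 changes were -0.66 and -0.70, beside 0.01 over all tested junctions. Junctions of the same gene share its total and are not independent, and neither total passed the threshold.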

How the data were processed

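The deposited tables, 1 per library, hold raw counts of unique and multi-mapped reads per junction, with no normalization seen in the values; STAR and hg19 are named without versions per the submitters' processing notes, and the annotation is not given in the sources used here. TruSeq libraries of poly(A)+ RNA were sequenced as paired ends, per the labels' protocols. The overhang column, deposited by the authors as another quantity, was not used. Tables were joined on position, with absent junctions as 0. Members and lists were chosen with earlier results of these data known.

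Unique counts were tested with edgeR 4.0.16 (quasi-likelihood F-test, robust, legacy mode; R 4.3.3) as 2 counts per library and event, with terms for each library, for the count type and for count type by S34F. Fits ran over all events of a class with Benjamini-Hochberg adjustment, and motif codes 1 to 6 were kept. Cassette exons were at most 500 nt. Junction abundance used TMM scaling. Gene totals were compared by two-sided exact permutation. DESeq2 1.42.0 and limma 3.58.1 on log2 odds were alternatives, and the scripts were tested on simulated data. Named events were those called and, for each kinase, those with the lowest p or most reads; the 91-nt exons and the other exons named were chosen after their values were seen. Same-numbered libraries did not deviate together. Other pathway genes, sequences and likeness of genes were not analysed here. Some marker genes of the lists are not reported here.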

Additional observations from a re-analysis of the deposited data

How the results depend on the processing

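The number of kinase events called by edgeR depended on the tool, the depth and wild-type replicate 1. The 5 acceptor usage calls were 1 with DESeq2, 0 with limma, 2 with at least 50 reads in every library, and 0 to 10 when 1 library was left out. Over all genes the 1092 acceptor usage calls became 124 with DESeq2, 0 with limma and 681 with at least 50 reads. The 4 cassette exon calls were 2 with DESeq2, 0 with limma, 1 with at least 50 reads, 9 with no filter, and 0 to 7 when 1 library was left out. Over all genes the 529 cassette calls became 266 with DESeq2, 0 with limma, 314 with at least 50 reads and 679 with no filter. The competing acceptor calls were 1 with no minimum difference, beside 371 over all genes (162 with the minimum). The 1 junction abundance call was 3 with DESeq2, 4 with no filter, 0 with multi-mapped reads added, and 0 to 5 when 1 library was left out. Over all genes the 344 junction calls became 1472 with DESeq2, 2907 with no filter and 287 with multi-mapped reads added. Without wild-type replicate 1 the acceptor usage, cassette and junction counts were 10, 7 and 5, beside 1932, 1042 and 503 over all genes. Acceptor usage calls numbered 3 and 2 without wild-type replicates 2 and 3, and 5, 2 and 0 without S34F replicates 1, 2 and 3. Over all genes the acceptor usage counts were 461 and 635, and 484, 336 and 77, in the same order. Cassette calls numbered 2 without wild-type replicate 2, wild-type replicate 3 or S34F replicate 1, and 0 without S34F replicate 2 or 3. Over all genes the cassette counts were 130, 325 and 116, and 74 and 0, in the same order. The junction call was lost without any library other than wild-type replicate 1. Over all genes the junction counts were 0 and 1 without wild-type replicates 2 and 3. They were 71, 668 and 5 without S34F replicates 1, 2 and 3. With the replicate number as a block there were 7 acceptor usage, 3 cassette, 0 competing acceptor and 0 junction calls. Over all genes these counts were 923, 186, 136 and 50. Same-numbered libraries had deviation correlations of -0.143, -0.142 and -0.053, so the numbers give no pairing.

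The log2 change of the CLK2 total turned from negative to 0.03 without wild-type replicate 2 and 0.13 without S34F replicate 2. Log2 odds of 2 uncalled exons also changed sign, ranging from -0.15 to 0.53 (SRPK2, 93 nt) and from -0.20 to 0.30 (SRPK1, 117 nt) when 1 library was left out. Depth limits these events: the widest 95% interval for a library of the CLK3 97-nt exon spanned 37.9 percentage points, and exons read by fewer than 20 reads in a library were not tested.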
